A study of Mus musculus with 6 samples.

Results

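The genes of the phase II conjugation enzymes were examined in mouse liver after silencing of Rnf10. Members were taken by symbol: Gst followed by one of the class letters a, k, m, o, p, t or z and a digit, Ugt1, Ugt2 or Ugt3, and Sult followed by a digit, with names ending in -ps left out. Of 55487 genes in the count table, 64 were members, namely 22 glutathione S-transferase (Gst), 21 UDP-glucuronosyltransferase (Ugt) and 21 sulfotransferase (Sult) genes. The livers came from 6 wild-type male C57BL/6J mice on normal chow, collected at 17 weeks of age. Of these, 3 mice had received GalNAc-siNC subcutaneously, a control siRNA carrying the N-acetylgalactosamine sugar that directs uptake into hepatocytes, and 3 had received GalNAc-siRnf10, which targets the E3 ubiquitin ligase gene Rnf10. Every mouse gave 1 library of bulk liver RNA with 26854377 to 33058645 counts, and all libraries carry the same batch label. In bulk tissue, fewer cells of a type and less RNA per cell cannot be told apart.

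Phase II enzymes attach a water-soluble group to drugs, hormones, bile acids, bilirubin and the reactive products of phase I oxidation, so that these leave the cell through efflux transporters. Gst enzymes add glutathione, Ugt1 and Ugt2 enzymes add a sugar taken from UDP-glucuronic acid, and Sult enzymes add sulfate taken from the donor PAPS. In liver, many of these genes are transcribed under the control of the nuclear receptors CAR (Nr1i3) and PXR (Nr1i2), of the aryl hydrocarbon receptor Ahr and of NRF2 (Nfe2l2).

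The target gene was lower in the treated mice. Rnf10 was at 130, 153 and 136 CPM in the control mice and at 58.6, 61.4 and 60.5 CPM in the treated mice. The groups did not overlap, with a log2 fold change of -1.22 (SE 0.07, adjusted p = 3.29e-09), or 0.430-fold of control. CPM values are counts scaled to a library size of 1000000 after TMM normalization, and the adjusted p values come from edgeR's quasi-likelihood test across all tested genes, with a gene called at an adjusted p under 0.05.

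Control mouse 1 stood apart from the other control mice. The chi-square statistic per gene between libraries of the same group was 30.7 and 30 for the pairs with control mouse 1, 10.3 for control mice 2 and 3, and 4.7 to 5.37 among the treated mice. The counts of called members and of called genes on the lists are therefore also given without this mouse.

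Most members with usable counts were more abundant in the treated livers. Of the 64 members, 43 passed the filter on low counts, and 42 of these had at least 10 counts in every library. Of the 43, 24 were called higher and 1 was called lower, and 18 were not called. Across all 14046 tested genes, 6.71% were called higher, 7.28% lower and 14.0% in either direction. The median log2 fold change was 0.37 over the tested members and 0.00 over all tested genes. In 29 members every treated mouse lay above every control mouse and in 3 every treated mouse lay below, against 16.5% and 16.4% of all tested genes. Without control mouse 1, 28 members were called higher and 1 lower (16 Gst, 9 Ugt and 4 Sult genes in all), while the number of all genes called rose from 1965 to 2864. Leaving out treated mouse 1, 2 or 3 gave 21, 21 and 23 members called higher and 0, 1 and 1 lower, while the number of all genes called fell to 1053, 1128 and 1128.

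**Figure D1:**
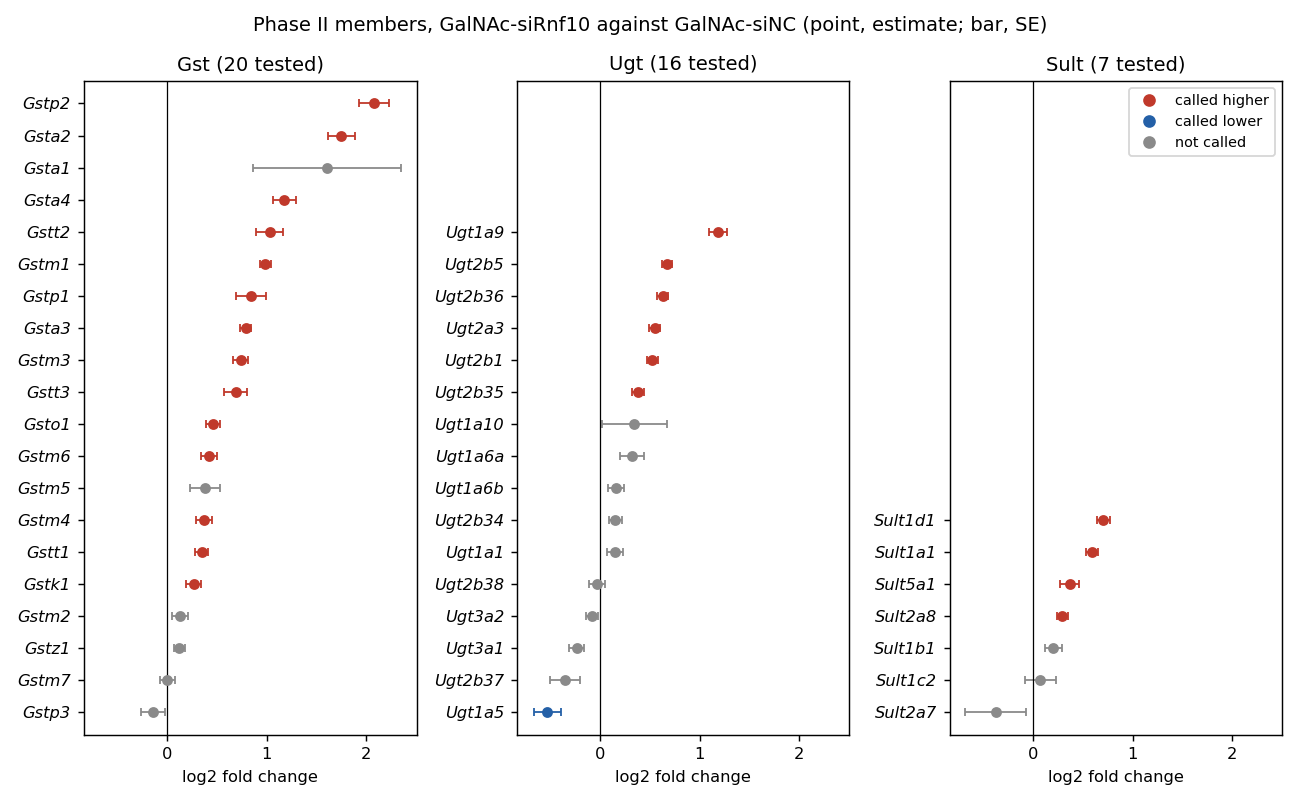
Log2 fold change of every tested member between treated and control mice, by family, ordered by size. Points are estimates and bars are SE from 3 mice per group, and colour marks the call at an adjusted p under 0.05. Of the 20 Gst genes 14 are called higher, of the 16 Ugt genes 6 are higher and 1 lower, and of the 7 Sult genes 4 are higher.

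In sum, transcripts of the 64 members made up 8918, 8860 and 9347 CPM in the control mice and 13406, 13111 and 13065 CPM in the treated mice, a ratio of 1.46 between the group means. Each family showed a higher sum in every treated mouse than in any control mouse. The summed Gst level was 3719 ± 322 CPM in control and 6090 ± 123 CPM in treated mice (SD, n = 3), a ratio of 1.64. For the Ugt family the sums were 3946 ± 224 and 5340 ± 80.1 CPM (SD, n = 3), a ratio of 1.35, and for the Sult family 1376 ± 73.2 and 1764 ± 33.5 CPM (SD, n = 3), a ratio of 1.28. With 3 mice against 3, an exact two-sided permutation test cannot give a p below 0.1, and no test was run on these sums.

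**Figure D2:**
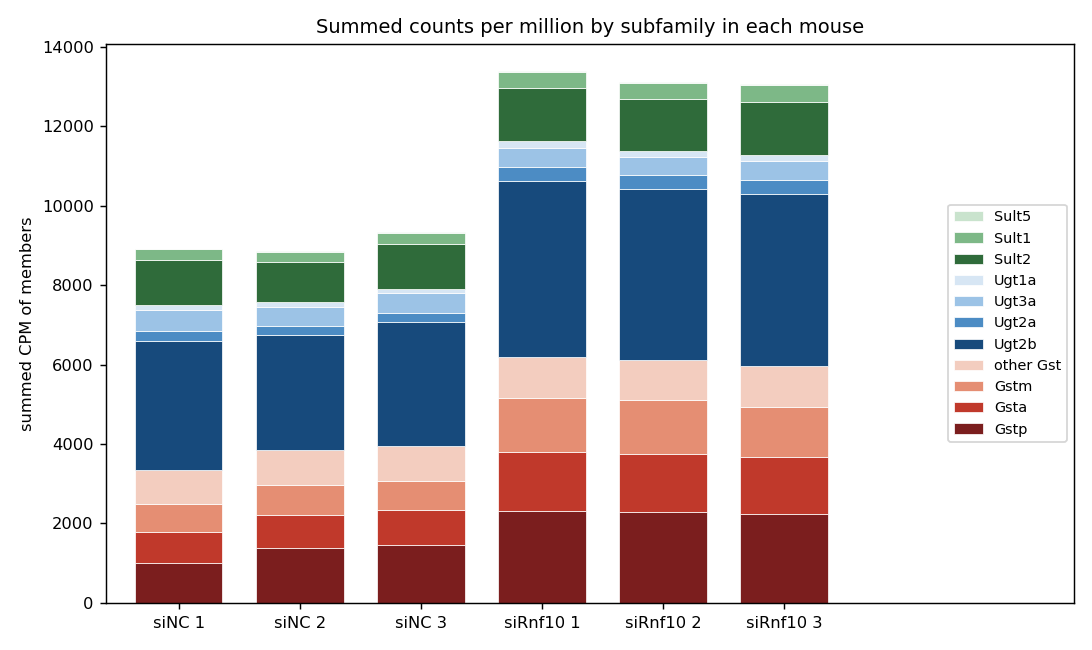
Summed CPM of the members in each of the 6 mice, stacked by subfamily. Total height runs from 8860 to 9347 CPM in the control mice and from 13065 to 13406 CPM in the treated mice.

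Per kilobase of exon not shared with another gene on the same strand, the most abundant member in control liver was Gstp1, at 818 ± 160 CPM per kb (SD, n = 3). It was followed by Ugt2b5 at 456 ± 13.1, Gstm1 at 371 ± 10.9, Sult2a8 at 329 ± 19.7, Ugt2b36 at 285 ± 15.5 and Ugt2b1 at 281 ± 19.6 CPM per kb. The levels of Ugt2b36 and Ugt2b1 differed by less than their spread. In the treated mice Gstm1 and Ugt2b5 stood at 735 ± 32.4 and 725 ± 2.10 CPM per kb, again within their spread of each other. Of the 11 members at 100 CPM per kb or more in control liver, 8 were called higher, and Gstz1, Ugt2b34 and Ugt3a2 were not called. Among the 32 tested members below that level, 16 were called higher and 1 lower.

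Glutathione transferases of the pi class are encoded by neighbouring genes at chr19:4035407-4059569 (GRCm38). The coding sequences of Gstp1 and Gstp2 differ at 12 of 630 bases. The first 90 coding bases of both are shown because they hold 6 of these 12 differences, where reads can tell the genes apart. Both start at ATG and lie on the minus strand, within chr19:4037344-4037863 for Gstp1 and chr19:4041638-4042165 for Gstp2, and capitals mark bases of Gstp2 that differ from Gstp1.
Gstp1: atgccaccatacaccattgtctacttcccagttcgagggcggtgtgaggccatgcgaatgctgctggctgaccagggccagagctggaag
Gstp2: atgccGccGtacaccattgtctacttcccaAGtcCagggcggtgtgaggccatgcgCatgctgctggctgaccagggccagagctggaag
Of the 150-base stretches of the annotated Gstp2 transcripts, 35.7% occur unchanged in another gene, and of those of Gstp1, 17.6%.

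Gstp1, the main pi-class transferase of male mouse liver, was at 981, 1380 and 1437 CPM in the control mice and at 2301, 2281 and 2225 CPM in the treated mice. All treated mice lay above all control mice, and control mouse 1 was the lowest. The log2 fold change was 0.84 (SE 0.15, adjusted p = 0.0229), and the call was lost without control mouse 2 (adjusted p = 0.0892), treated mouse 1 (0.0527) or treated mouse 2 (0.0518). Gstp2 was far less abundant, at 2.70, 2.26 and 2.46 CPM in the control mice and 12.04, 10.2 and 9.26 CPM in the treated mice. In the fit to all 6 mice it had the highest log2 fold change of the tested members, 2.08 (SE 0.15, adjusted p = 4.62e-08), and it kept its call without any single mouse. Gstp3, whose annotated coding sequence matches that of Gstp1 at 71.6% of bases, was at 9.60 ± 1.03 CPM in control and 8.67 ± 0.203 CPM in treated mice (SD, n = 3) and was not called. With the counts of the 3 genes added up, the log2 fold change was 0.84 (adjusted p = 0.0217).

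In the alpha class, 3 of 4 tested genes rose. Gsta3, the abundant member of the class, known in mouse for conjugating the epoxide of aflatoxin, was at 768, 813 and 877 CPM in the control mice and at 1438, 1413 and 1393 CPM in the treated mice. The log2 fold change was 0.79 (SE 0.06, adjusted p = 3.19e-08). Gsta2 was at 4.28, 3.69 and 4.86 CPM in the control mice and 15.4, 12.9 and 14.9 CPM in the treated mice, a 3.36-fold difference (adjusted p = 7.07e-08). Gsta4, which conjugates the lipid peroxidation product 4-hydroxynonenal, was at 13.4 ± 2.47 and 30.3 ± 0.684 CPM (SD, n = 3), a 2.26-fold difference (adjusted p = 1.85e-06). For these genes no treated mouse overlapped the control mice. Gsta1 had 0 to 28 counts in the control and 27 to 55 in the treated libraries and was not called (adjusted p = 0.221), and 68.4% of the 150-base stretches of its transcripts also occur in another gene. Gsta1 and Gsta2 added up gave a log2 fold change of 1.74 (adjusted p = 1.09e-07).

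The mu class lies at chr3:107895821-108044894, where 4 of 7 neighbouring genes rose and none fell. Gstm1, the most abundant of them, was at 548, 563 and 531 CPM in the control mice and at 1117, 1103 and 1029 CPM in the treated mice. Its log2 fold change was 0.99 (SE 0.05, adjusted p = 1.51e-09), and Gstm1 alone carried 74.3% of the mu-class sum in control liver. Gstm3 (log2 fold change 0.74), Gstm6 (0.42) and Gstm4 (0.37) rose as well, all with separate groups. Next to Gstm6 on the chromosome, Gstm7 was at 38.8 ± 1.95 CPM in control and 38.8 ± 1.99 CPM in treated mice (SD, n = 3), with a 95% interval of the log2 fold change of -0.15 to 0.15. Gstm2 (0.13) and Gstm5 (0.38) were not called, and their groups overlapped.

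Of the theta class, at chr10:75774115-75837424, all 3 tested genes rose. Gstt2 was at 15.5, 23.4 and 21.9 CPM in the control mice and at 43.7, 42.1 and 38.0 CPM in the treated mice (log2 fold change 1.03, SE 0.13, adjusted p = 0.000382). Gstt3 (0.69) and the more abundant Gstt1 (0.35) had smaller differences, and Gstt4 had counts in only 1 mouse. Gsto1, an omega-class enzyme that reduces dehydroascorbate and mixed disulfides, was at 73.9 ± 6.36 and 102 ± 2.04 CPM (SD, n = 3) and was called higher (log2 fold change 0.46). Gstk1, the kappa-class enzyme of mitochondria and peroxisomes, was called at a log2 fold change of 0.27 (adjusted p = 0.0265), a call lost without treated mouse 1, 2 or 3 (adjusted p = 0.0871, 0.126 and 0.127) and with correction for GC content and gene length (adjusted p = 0.141). Gstz1, which isomerizes maleylacetoacetate in tyrosine breakdown, was at 575 ± 11.3 and 626 ± 12.1 CPM (SD, n = 3), with groups apart but no call (log2 fold change 0.12, adjusted p = 0.126).

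**Figure D3:**
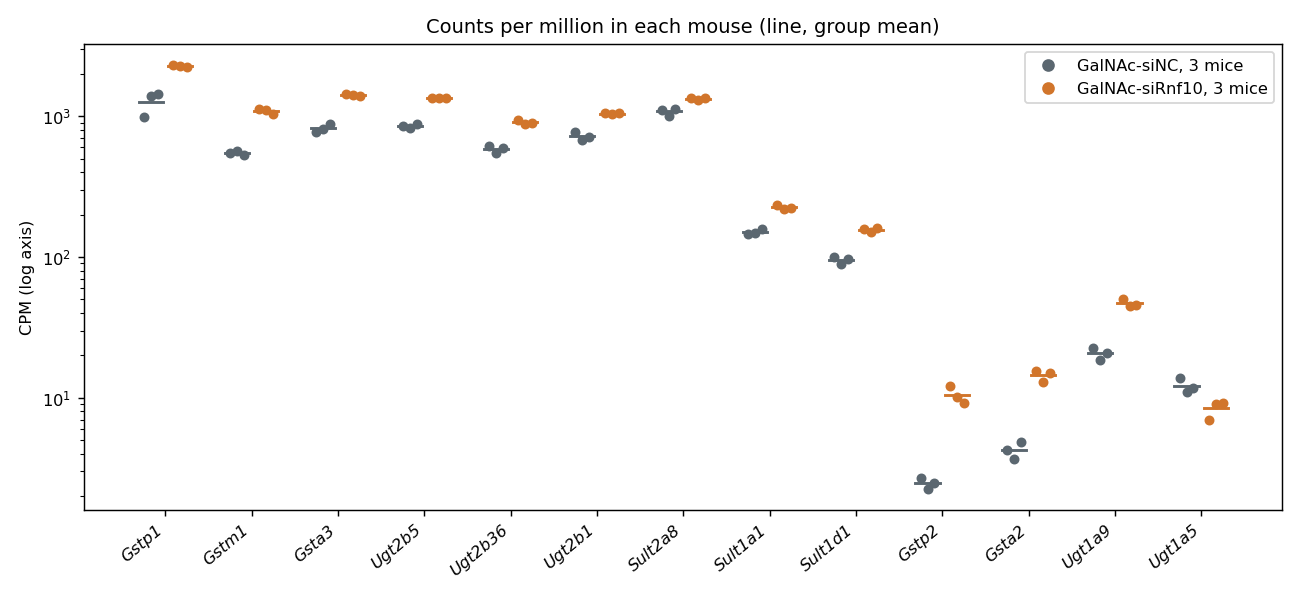
CPM of 13 members in each mouse on a log axis, with the group mean as a line. The first 9 are the 3 most abundant per kilobase of each family, and the last 4 are lower genes with called differences. Treated mice lie above control mice for all except Ugt1a5, where they lie below.

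The Ugt1 locus at chr1:88055388-88220002 holds 9 Ugt1a genes on the plus strand. Every pair of the 9 gene models shares at least 1311 exonic bases, and Ugt1a6a and Ugt1a7c share 2170 with each other. Reads from shared bases alone cannot separate the genes. In the 3 transcripts shown, a first exon of each gene's own is joined to the shared exon 2. The junction is shown for Ugt1a9, which rose, Ugt1a5, which fell, and Ugt1a1, which was not called. Lower case is the last 60 bases of each own first exon (chr1:88071619-88071678, chr1:88166844-88166903 and chr1:88212812-88212871), and capitals are the first 30 bases of the shared exon 2 (chr1:88215044-88215073).
Ugt1a9: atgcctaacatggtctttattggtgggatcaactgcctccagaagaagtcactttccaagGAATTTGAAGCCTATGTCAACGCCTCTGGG
Ugt1a5: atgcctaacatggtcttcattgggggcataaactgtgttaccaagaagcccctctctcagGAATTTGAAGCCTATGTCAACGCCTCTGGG
Ugt1a1: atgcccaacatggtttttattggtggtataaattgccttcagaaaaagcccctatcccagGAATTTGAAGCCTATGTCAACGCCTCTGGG
Of the 150-base stretches in these 3 transcripts, 56.1% to 62.2% also occur in another gene of the locus.

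Ugt1a9, whose enzyme glucuronidates phenols, was at 22.7, 18.6 and 20.8 CPM in the control mice and at 50.6, 44.9 and 46.0 CPM in the treated mice. Its log2 fold change was 1.19 (SE 0.09, adjusted p = 5.52e-08), the highest of the tested Ugt genes. Ugt1a5 was at 13.8, 11.02 and 11.7 CPM in the control mice and at 6.97, 9.06 and 9.26 CPM in the treated mice. Here the treated mice lay below the control mice, with a log2 fold change of -0.53 (SE 0.13, adjusted p = 0.0126), and the call was lost without treated mouse 1 (adjusted p = 0.0975). Ugt1a1, the bilirubin-conjugating enzyme, was at 44.0 ± 4.28 CPM in control and 48.8 ± 1.06 CPM in treated mice (SD, n = 3) and was not called (adjusted p = 0.253). The genes Ugt1a6a, Ugt1a6b and Ugt1a10 of the same locus had log2 fold changes of 0.16 to 0.34 without a call.

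As a share of the counts of all 9 Ugt1a genes, Ugt1a9 took 17.2%, 15.1% and 17.8% in the control mice and 30.9%, 29.1% and 29.4% in the treated mice. Ugt1a5 went from 10.4%, 8.93% and 10.1% to 4.25%, 5.88% and 5.93%. The groups did not overlap for either share. Ugt1a1 held 35.5% ± 2.69 in control and 30.9% ± 0.471 in treated mice (SD, n = 3). With all Ugt1a counts added up, the log2 fold change of the locus was 0.35 (SE 0.06, adjusted p = 0.00122).

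**Figure D4:**
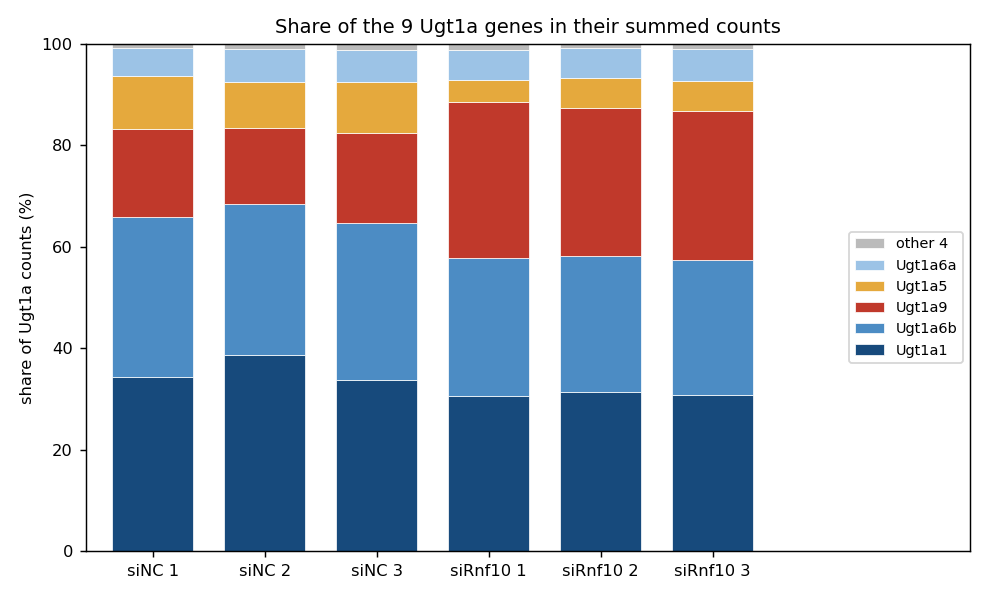
Share of each Ugt1a gene in the summed counts of the 9 genes, in percent, for each of the 6 mice. Ugt1a9 takes 15.1% to 17.8% in control and 29.1% to 30.9% in treated mice, and Ugt1a5 takes 8.93% to 10.4% and 4.25% to 5.93%.

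The Ugt2 genes and 3 Sult1 genes share a stretch of chromosome 5 (chr5:86889767-87591594). Of its 13 members, 6 rose, none fell, 4 were not called and 3 had too few counts to be tested. Ugt2b5, Ugt2b36 and Ugt2b1, which glucuronidate steroids and many drugs, carry most Ugt transcripts of male liver. Ugt2b5 was at 846, 824 and 873 CPM in the control mice and at 1351, 1346 and 1343 CPM in the treated mice (log2 fold change 0.67, SE 0.05, adjusted p = 5.24e-08). Ugt2b1 was at 778, 678 and 716 CPM in the control mice and at 1048, 1028 and 1045 CPM in the treated mice (log2 fold change 0.52, SE 0.06, adjusted p = 5.29e-06). Ugt2b36 was at 587 ± 32.0 and 908 ± 28.0 CPM (SD, n = 3; log2 fold change 0.63), and the groups of all 3 genes were apart. Ugt2a3 (0.55) and Ugt2b35 (0.38) rose as well.

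Among their neighbours, Ugt2b38 stood at 42.2 ± 1.81 CPM in control and 41.4 ± 3.34 CPM in treated mice (SD, n = 3), although 19.2% of the 150-base stretches of its transcripts also occur in Ugt2b5. Ugt2b34 was at 603 ± 60.9 and 670 ± 22.9 CPM (SD, n = 3), with overlapping groups and no call. Ugt2b37 had the lowest log2 fold change of the cluster, -0.35 (adjusted p = 0.153). The Ugt3a genes, which transfer sugars other than glucuronic acid, lie at chr15:9276888-9370955. Ugt3a1 was at 63.8, 53.7 and 58.1 CPM in the control mice and at 52.0, 49.5 and 47.6 CPM in the treated mice, groups that did not overlap, but it was not called (log2 fold change -0.24, adjusted p = 0.0525). Ugt3a2 was at 442 ± 33.1 and 418 ± 11.6 CPM (SD, n = 3) and was not called. The Ugt calls of 6 higher and 1 lower became 7 higher and 4 lower when GC content and gene length were corrected for, an alternative chosen after seeing the data, with Ugt3a1 (-0.33, adjusted p = 0.000452), Ugt3a2 (-0.15, 0.0185) and Ugt2b37 (-0.50, 0.0154) added to Ugt1a5. With that correction the number of all genes called also rose, from 1965 to 2500.

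Sulfotransferase transcripts were dominated by 1 gene. Sult2a8, which sulfates bile acids and is typical of male liver, carried 78.5% of the Sult sum in control liver. It was at 1112, 1007 and 1124 CPM in the control mice and at 1334, 1296 and 1341 CPM in the treated mice (log2 fold change 0.29, SE 0.05, adjusted p = 0.00136). Its groups did not overlap, and among the members called higher only Gstk1 had a smaller log2 fold change. The remaining Sult2a genes of chr7:13623967-14494230 were silent or close to it, with Sult2a3, Sult2a4, Sult2a5 and Sult2a6 at 0 counts in every library, where 3 counts correspond to at most 0.114 CPM. Sult2a7 was at 1.28 ± 0.0977 and 0.988 ± 0.328 CPM (SD, n = 3) and was not called.

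Sult1a1, the main phenol sulfotransferase, was at 145, 148 and 158 CPM in the control mice and at 233, 220 and 224 CPM in the treated mice. Its log2 fold change was 0.59 (SE 0.06, adjusted p = 2.39e-06). Sult1d1, known for sulfating catecholamines in mice, was at 100, 89.2 and 97.5 CPM in the control mice and at 158, 151 and 159 CPM in the treated mice, with the highest log2 fold change of the tested Sult genes, 0.71 (SE 0.07, adjusted p = 8e-07). Both genes had treated mice above all control mice. Sult1b1, which acts on thyroid hormones and lies next to Sult1d1, was at 25.2 ± 1.25 and 29.02 ± 1.62 CPM (SD, n = 3) and was not called (adjusted p = 0.128). Sult5a1 was called at a log2 fold change of 0.37 (adjusted p = 0.0144), and the call was lost without treated mouse 1 or 2 (adjusted p = 0.0770 and 0.0882).

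The other 21 members did not pass the filter on low counts. They were 14 Sult, 5 Ugt and 2 Gst genes, none above 16 counts in a library, and 9 of them had no count in any library. Among them are Sult1e1, the estrogen sulfotransferase, at 0 to 13 counts, Sult2a1 and Sult3a1, which are typical of female mouse liver, and the olfactory Ugt2a1 and Ugt2a2, which share most of their exons. Only 30 exonic bases of Ugt2a1 and 140 of Ugt2a2 are shared with no other gene on the same strand. Their lack of counts therefore cannot show that they were silent. Ugt1a7c had 6, 9 and 8 counts in the control mice and 14, 10 and 16 in the treated mice, groups that did not overlap. None of the 21 was tested in the reported fit.

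The genes that supply the donor molecules did not move in one direction. On the list for UDP-glucuronic acid, 2 of 6 tested genes rose and 2 fell. Ugp2, which makes UDP-glucose, was at 226 ± 11.2 CPM in control and 326 ± 1.72 CPM in treated mice (SD, n = 3; log2 fold change 0.53), and Ugdh, which oxidizes it to UDP-glucuronic acid, had a log2 fold change of 0.23. The sugar transporters Slc35d2 (-0.33) and Slc35d1 (-0.19) fell. Of these 4 calls only that of Ugp2 held in all 6 leave-one-out fits, in which 1 mouse at a time was dropped, with an adjusted p of up to 0.103 for Ugdh, 0.108 for Slc35d2 and 0.238 for Slc35d1. On the list for PAPS, 2 of 8 fell and none rose, namely the PAPS synthase Papss1 (-0.49) and the sulfate transporter Slc26a1 (-0.23). Both calls were lost without some single mice, with an adjusted p of up to 0.0667 and 0.133. Papss2, the more abundant synthase of liver, was at 182 ± 10.4 and 204 ± 0.421 CPM (SD, n = 3; adjusted p = 0.0781). For glutathione synthesis and turnover, 4 of 15 tested genes rose and 1 fell. Gclc, the catalytic subunit of the rate-limiting enzyme of glutathione synthesis, was at 159 ± 2.89 and 212 ± 8.59 CPM (SD, n = 3; log2 fold change 0.41, adjusted p = 0.000106), while its partner Gclm was at 264 ± 15.3 and 278 ± 8.55 CPM (SD, n = 3; adjusted p = 0.456). Glrx (0.39), Chac2 (0.33) and Gpx4 (0.29) also rose, and of the 5 calls only those of Gclc and Glrx held in all 6 leave-one-out fits. Without control mouse 1 the calls on the 3 lists were 2 higher and 3 lower, 1 higher and 2 lower, and 5 higher and 2 lower. The median log2 fold change of these 3 lists was -0.08, -0.09 and 0.10, beside 0.00 for all tested genes. Among all tested genes, 6.71% were called higher and 7.28% lower.

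Conjugation enzymes outside the 3 families were mixed. Of 16 tested genes 6 rose and 2 fell, and 8 rose and 2 fell without control mouse 1. The share called among all tested genes was 14.0% in either direction. Inmt, which methylates indoles, was at 236 ± 38.0 and 520 ± 18.2 CPM (SD, n = 3; log2 fold change 1.14, adjusted p = 0.000241). Epoxide hydrolase Ephx1 (0.55) and the quinone reductase Nqo1 (0.49) rose, and the arylamine acetyltransferase Nat2 (-0.33, adjusted p = 0.0255) was among those that fell. The calls of Inmt and Ephx1 held in all 6 leave-one-out fits, while those of Nqo1 and Nat2 held in 2 of 6. Microsomal and other glutathione transferases had 1 of 5 tested genes called, Mgst3 (0.61), called in 1 of 6 leave-one-out fits and not without control mouse 1, whereas the abundant Mgst1 was at 2943 and 3151 CPM and was not called. Of the 5 tested genes of deconjugating enzymes 0 were called in edgeR, DESeq2 or limma voom, 0 without control mouse 1, and 0 had an unadjusted p under 0.05. Of the 9 efflux transporters of conjugates, 3 rose and none fell. Abcc3, which exports glucuronides to the blood, was at 102 ± 3.81 and 183 ± 0.306 CPM (SD, n = 3; log2 fold change 0.84, adjusted p = 3.76e-08), while the canalicular Abcc2 (0.23) and Abcg2 (0.24) had smaller differences, called in 1 and 3 of 6 leave-one-out fits. Without control mouse 1, 4 transporters were called higher and 0 lower.

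Among the regulators, 3 of 19 rose and 1 fell, or 21.1% called beside 14.0% of all tested genes. Nr1i3 was at 20.9 ± 2.23 and 32.2 ± 1.90 CPM (SD, n = 3; log2 fold change 0.63, adjusted p = 0.000175), Ahr had a log2 fold change of 0.48 and Nr1i2 of 0.37, and Stat5b, which mediates growth hormone signals, fell by 0.35 on the log2 scale. All 4 calls held in the 6 leave-one-out fits. Without control mouse 1 there were 4 higher and 4 lower, in a fit that called 2864 genes in all against 1965 with all 6 mice. Nfe2l2 was at 61.1 ± 1.53 and 61.0 ± 3.78 CPM (SD, n = 3; adjusted p = 0.986). Known target genes outside the members were counted for 3 of these pathways. For comparison, 6.71% of all tested genes were called higher and 7.28% lower. Of 11 CAR and PXR targets, 10 rose, with a median log2 fold change of 0.50. Cyp3a11 was at 996 ± 77.04 and 2271 ± 69.2 CPM (SD, n = 3; log2 fold change 1.19), Cyp2a5 had 1.40, and Cyp2b10, at 0.514 and 2.62 CPM, had 2.35. Of 12 tested NRF2 targets, 4 rose and 1 fell, with a median of 0.07. Cbr1 (0.66) was called higher and Osgin1 (-0.98) lower, and Txnrd1 (0.03), Gclm (0.08) and Hmox1 (0.03) were not called. Of 5 tested AHR targets, Cyp1a2 (0.25) and Nqo1 rose. The calls of Por and Cyp2c55 among the CAR and PXR targets, and of Nqo1, were each lost in at least 4 of 6 leave-one-out fits. Without control mouse 1, the calls were 10 higher and 0 lower for the CAR and PXR targets, 4 and 2 for the NRF2 targets and 2 and 0 for the AHR targets. Some genes stand on more than one of these lists, and all lists were written with earlier results of these data known.

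**Figure D5:**
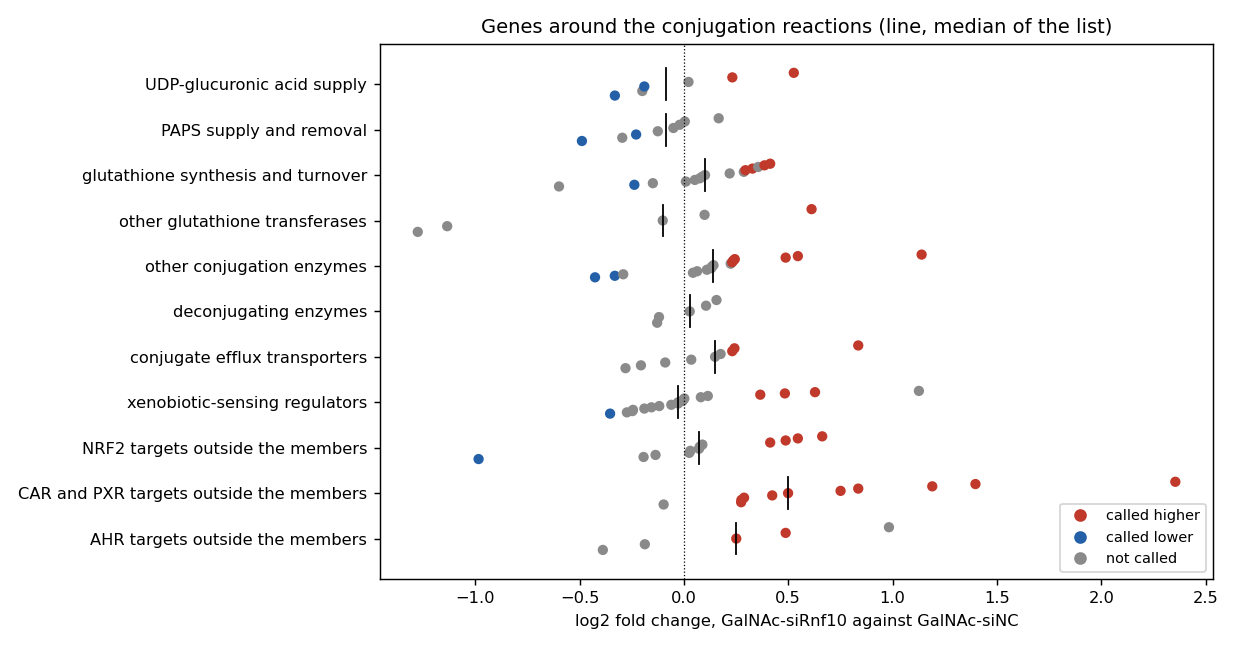
Log2 fold change between treated and control mice of each tested gene on 11 lists of genes around the conjugation reactions. Each point is 1 gene, coloured by its call, and the vertical line is the median of the list, which is 0.50 for the CAR and PXR targets and between -0.10 and 0.25 for the other lists.

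Some hepatocyte transcripts that are not conjugation enzymes were higher as well. Beside the calls below, 6.71% of all tested genes were called higher and 7.28% lower. Of 8 hepatocyte markers, 5 were called higher, with the same number without control mouse 1, though only the calls of Alb, Tat and Cyp2e1 held in all 6 leave-one-out fits, and the sum of all 8 was 65135, 60539 and 62359 CPM in the control mice and 90789, 88919 and 87923 CPM in the treated mice, a ratio of 1.42 beside 1.46 for the members. Albumin (Alb), the most abundant, was at 39068 and 60860 CPM, and the sum of the other 7 markers was 23610 ± 708 and 28350 ± 271 CPM (SD, n = 3), a ratio of 1.20. The called markers had log2 fold changes of 1.41 (Tat), 0.66 (Ttr), 0.64 (Alb), 0.44 (Serpina1c) and 0.29 (Cyp2e1). Apoa1 (0.08), Asgr1 (0.11) and Apob (-0.11) were not called. Of 6 tested cholangiocyte markers 2 fell, among them Spp1 (-0.90), and 3 fell without control mouse 1. The median log2 fold change of this list was -0.40, its sum was 91.4 ± 1.79 CPM in control and 53.5 ± 1.71 CPM in treated mice (SD, n = 3), and Krt19, Krt7 and Epcam were below 1 CPM in both groups. Spp1 alone carried 67.7% of the control sum, and all 6 tested genes of the list had negative values. Of 7 macrophage and Kupffer cell markers 0 were called in edgeR, DESeq2 or limma voom and 1 had an unadjusted p under 0.05, while 1 was called lower without control mouse 1, with sums of 190 ± 13.9 and 190 ± 5.94 CPM (SD, n = 3). The part of cell composition in the differences of the members was not tested.

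The promoters of 56 members, from 250 bases before to 50 bases after the start of transcription (RefSeq, GRCm38.p6), were searched on both strands for 5 short motifs. The antioxidant response element, spelled TGACNNNGC, occurred in the promoters of 3 members (Gsta3, Gstm5 and Gstm7), or 5.36%, against 14.0% of all 27025 genes searched. The window around the match of Gsta3, the one of these 3 genes that was called, lies at chr1:21240424-21240512 on the plus strand, and the capitals are the match, 121 bases before the start.
Gsta3: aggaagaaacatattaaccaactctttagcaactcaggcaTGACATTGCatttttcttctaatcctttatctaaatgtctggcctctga
The AHR motif GCGTG occurred in 19.6% of members and 35.2% of all genes, the D-box TTANGTAA in 5.36% and 2.72%, the STAT motif TTCNNNGAA in 7.14% and 9.55%, and the E-box CACGTG in none of the members and 8.09% of all genes. These matches describe the letters in the windows only.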

How the data were processed

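The authors prepared stranded mRNA libraries from liver RNA, sequenced them as 150-base read pairs, aligned them by HISAT2 to the GRCm38 genome, and deposited unnormalized counts for each gene together with gene model lengths. The counting tool, its strand setting and the annotation release are not given in the sources used here, so reads of overlapping or near-identical genes could be split or dropped.

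From these counts, 14046 genes that passed filterByExpr were tested in edgeR 4.0.16 (TMM, robust quasi-likelihood F-test, Benjamini-Hochberg adjustment over all tested genes), with treatment as the only term. The biological coefficient of variation was 9.28%. Symbols, transcripts and the exons of the coding sequences shown came from GENCODE M21, and 346 identifiers had no symbol. Levels per kilobase used the exons of the count table, without bases shared with another gene on the same strand. Read sharing was counted as 150-base stretches of transcripts found in another gene. The fit was tested on simulated counts. Alternatives included DESeq2 1.42.0 and limma voom 3.58.1.

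Members and lists were chosen with earlier results of these data known. Named genes were every called member, the markers Gstp1, Gstm1, Ugt2b1 and Sult1a1, the 3 most abundant members per kilobase of each family, Rnf10, and up to 4 called genes with the largest differences from each list. Other genes named in the text, such as Gstm7, Ugt1a1, Ugt3a1 and Gclm, were chosen after their values were seen. Each mouse gave 1 library, and 3 mice per group limit the precision. Some genes of the lists are counted but not reported by name here.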

Additional observations from a re-analysis of the deposited data

How the results depend on the processing

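Of the 25 called members, 21 were called in all 15 fits compared. Gstp1, Gstk1, Sult5a1 and Ugt1a5 each lost the call in at least 1 fit, and none of the 25 changed sign. The numbers of calls moved as follows. Leaving out 1 mouse gave 1053 to 2864 genes called in the liver. An adjusted p under 0.01 gave 1042 genes in the liver, 21 members, 12 Gst, 6 Ugt and 3 Sult. Asking in addition for a log2 difference of 0.5 or more in either direction, at an adjusted p under 0.05, gave 823 genes, 17 members, 9 Gst, 6 Ugt and 2 Sult. Offsets for gene length and GC content, an alternative added with the data in view, gave 2500 genes in the liver. Members called with these offsets were 29 in all (25 higher, 4 lower), 11 of them Ugt. The cause was not tested. Members called lower were 1 in the reported fit and 2 under upper quartile scaling, without a filter, with at least 10 counts in every library, in limma voom and without control mouse 2, the second being Ugt3a1, and 0 without treated mouse 1. Counts were also added up within Gstp, Ugt1a, Sult2a and Sult3a, and for Gsta1 with Gsta2 and Ugt2a1 with Ugt2a2. This left 23 units called, 13 Gst, 6 Ugt and 4 Sult. None was lower, but Ugt1a5 was part of the Ugt1a sum there and had no test of its own. DESeq2 gave 25 members of 1912 genes and limma voom 28 of 2311. The log2 fold change of Rnf10 ran from -1.27 to -1.15 without 1 mouse. With the mouse number as a replicate block, 25 members and 1816 genes were called and Rnf10 was at -1.22. The numbers mark different animals, and the deviations of same-numbered mice correlated at 0.000478, 0.0461 and -0.0439, so the numbers were not taken to pair them. The counts of the rarest members, Gsta1, Ugt1a10 and Sult2a7, limit what their tests can show.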

Other observations

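For the lists of this section, the shares among all tested genes were 6.71% called higher and 7.28% called lower. Some genes that mark the sides of the liver lobule were called higher on both sides. Of 10 periportal markers, 7 were called higher and none lower, with sums of 9991 ± 411 CPM in control and 14271 ± 59.0 CPM in treated mice (SD, n = 3). Ass1 of the urea cycle (log2 fold change 0.84), the serine dehydratase gene Sds (0.64), Cps1 (0.58) and Pck1 of gluconeogenesis (0.48) had the largest differences. Of 10 pericentral markers, 6 were called higher and 1 lower, with sums of 9311 ± 66.6 and 11257 ± 90.1 CPM (SD, n = 3). Oat (0.47), Lect2 (0.42) and the glutamate transporter gene Slc1a2 (0.33) were higher, and the Wnt target Axin2 (-0.44, adjusted p = 0.0447) was lower, called in 1 of 6 leave-one-out fits. Without control mouse 1, the calls were 9 higher and 0 lower for the periportal markers and 6 higher and 0 lower for the pericentral markers.

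Clock genes, several of which are known to set the daily course of conjugation enzymes, were also among the called genes. Of 14 tested, 5 were called higher and 1 lower, all of which held in the 6 leave-one-out fits, and 6 were higher and 2 lower without control mouse 1. Per1 was at 11.8 ± 0.634 CPM in control and 39.5 ± 2.12 CPM in treated mice (SD, n = 3; log2 fold change 1.74), Ciart had 1.29 and Cry1 0.75, and Nr1d1 was lower (-0.68). The proline and acidic amino acid-rich factors Dbp (0.25, adjusted p = 0.532), Tef (0.12) and Hlf (-0.02), which bind the D-box, were not called. Time of collection was not compared between the groups here.

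Of 10 male-biased liver genes 4 were called higher (Cyp4a12a, 0.48; Cyp4a12b, 0.27; Cyp2d9, 0.25; Slco1a1, 0.23) and 2 lower (C6, -0.34; Cyp7b1, -0.19), and of 4 tested female-biased genes 3 were called higher (Acot3, 2.36; Abcd2, 0.97; Trim24, 0.59). Of 6 tested endothelial markers Lyve1 (0.55) and Clec4g (0.52) were called higher, of 7 stellate cell and fibroblast markers Dcn (0.36) and Reln (0.35) were called higher while 4 of the 5 not called had negative values (list median -0.20), and of 3 tested blood leukocyte markers S100a9 (-1.43) was called lower, in 1 of 6 leave-one-out fits as well, while Ptprc (0.09) and Cd79a (0.48) were not called. Outside the liver, 1 of 2 tested kidney and gut markers (Fabp2, 0.46) and the 1 tested pancreas marker (Cela1, 0.58) were called higher, at 28.6 and 39.3 CPM for Fabp2 and 19.8 and 29.5 CPM for Cela1 in control and treated mice. Of these 16 calls, 10 held in all 6 leave-one-out fits. Without control mouse 1, the calls were 5 higher and 3 lower for the male-biased genes, 4 and 0 for the female-biased, 1 and 1 for the endothelial, 2 and 0 for the stellate, 0 and 1 for the leukocyte, 1 and 0 for the kidney and gut and 1 and 0 for the pancreas list.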
